A study of Mus musculus with 162 samples.

Results

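Erbb4 and the neuregulin genes Nrg1, Nrg2 and Nrg3 encode a receptor and its ligands. These 4 genes of the 22879 in the count table were taken by name, and all 4 were found. The choice used no cut on their values but was made with earlier results of these data known. ErbB4 is a receptor tyrosine kinase of the epidermal growth factor (EGF) receptor family, and neuregulins are EGF-like proteins, mostly made as membrane-bound precursors, that bind its extracellular part. In the developing forebrain this pairing is known for its place in the migration of interneurons into the cortex and in the forming of their synapses, with the receptor in interneurons and ligands in their targets and along their path. ErbB4 is also known to pair with other members of the receptor family when a ligand binds.

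The study concerned neurexin splicing and sequenced RNA of 162 mouse cells at E17.5 to E18.5 of embryonic development, with the cytosol of a cell aspirated by patch clamp. The cells came from 3 Cre driver lines, in which the promoter of a gene marks a class of cortical neuron: 122 cells from the Htr3a line, 22 from the Lhx6 line and 18 from the Nex line, the last named for Neurod6. The submitters passed 148 cells in quality control, of which 57 are called interneuron-type here (MGE-derived 1, 18 cells; MGE-derived 2, 24; CGE-derived, 11; GABAergic, 4), and 46 are Glutamatergic 1 (33) or Glutamatergic 2 (13). The rest are labelled Cajal Retzius (12), Undefined (22) or VZ-derived (11). MGE and CGE are read here as the medial and caudal ganglionic eminences, the birthplaces of most cortical interneurons, and VZ as the ventricular zone. The cells carry no further treatment or allele in the labels, and nothing says which cells shared an embryo. A group of cells is therefore 1 sample, no difference between groups was tested, and the driver line cannot be told apart from the embryos or from any batch that goes with it.

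Total counts of passed cells lay between 1710224 and 24836041, with 2066 to 14811 genes found per cell (median 5364). Interneuron-type cells are compared with cells of both Glutamatergic labels, called glutamatergic cells, and MGE-derived without a number means both such labels. Levels are in counts scaled to 1000000 per cell (CPM), and for a group in CPM of its summed counts. Differences are between means over cells of log2(CPM + 1), with the SD between cells. A gene was called higher or lower at a difference of at least 1, among the genes found in 10% or more of the cells of a group compared. The comparisons that involve glutamatergic cells share those cells. Intervals are 95% and cover counting error only. Because reads were counted without molecular identifiers, the CPM intervals understate even that error.

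Most labels were borne out by marker genes. GABAergic neuron markers (6 of the 7 listed genes were in the table) summed to 1937 CPM over the 57 interneuron-type cells and to 49.4 CPM over the 46 Glutamatergic cells. MGE interneuron markers summed to 3966 CPM in MGE-derived cells and CGE interneuron markers to 4249 CPM in CGE-derived cells, against 158 and 511 CPM the other way round. Cajal-Retzius markers reached 12133 CPM in Cajal Retzius cells, and glutamatergic markers 1243.5 CPM in Glutamatergic cells. Cells labelled VZ-derived lacked markers of ventricular zone progenitors for the most part: the 8 ventricular zone progenitor genes had a median of 0 CPM per cell and summed to 237 CPM, while the 7 glutamatergic neuron genes summed to 1299 CPM with none of the 11 cells under 396. If the label names an origin, as those of the eminences do, progenitor genes do not check it, and the cells are called by their label only. Microglia markers reached at least 1000 CPM in 14 of the 148 passed cells, 5 of them MGE-derived. Summed levels of oligodendrocyte lineage markers ran from 0.174 to 147 CPM over the 9 labels, of endothelial and mural cell markers from 0 to 24.1 CPM and of erythrocyte genes from 12.4 to 215 CPM. How the submitters assigned the labels is not given in the sources used here. If the same counts were used, a difference of Erbb4 between labels is not independent of them.

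On build GRCm38, in the GENCODE M21 annotation, all 4 genes are protein coding and lie on the minus strand. Erbb4 (ENSMUSG00000062209) spans 68032186 to 69108059 of chromosome 1, and Nrg1 (ENSMUSG00000062991) 31814551 to 32884029 of chromosome 8. Nrg2 (ENSMUSG00000060275) spans 36017652 to 36197380 of chromosome 18, and Nrg3 (ENSMUSG00000041014) 38368952 to 39473088 of chromosome 14. Their exons cover 12355, 10351, 3139 and 6817 bases and share no base with an exon of another counted gene.

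Erbb4 marked the interneuron labels. It had a count in 11 of 11 CGE-derived cells (100%, interval 71.5 to 100), 13 of 18 MGE-derived 1 cells (72.2%, 46.5 to 90.3), 19 of 24 MGE-derived 2 cells (79.2%, 57.8 to 92.9) and 4 of 4 GABAergic cells. Among the 46 Glutamatergic cells it had a single count in each of 3 cells and no count in the other 43. It was likewise close to the limit of detection in VZ-derived cells, with 1 count in 11 cells.

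In CGE-derived cells the lowest, median and highest levels of Erbb4 were 9.20, 257 and 1137 CPM. No CGE-derived cell lacked it. MGE-derived 1 cells ran from 0 through a median of 88.6 to 1017.5 CPM and MGE-derived 2 cells from 0 through 90.9 to 951 CPM. Within both MGE-derived labels the cells fell widely apart: 30 of 42 had at least 10 counts, 2 had fewer, and 10 had none. The 10 cells without Erbb4 held 4581839 to 11873816 counts (all 42 cells, 1710224 to 19310050), and their GABAergic markers summed to a median of 1430 CPM against 1579 CPM in the 32 cells with Erbb4. Thinning every cell to 1700000 counts left 30 of the 42 MGE-derived cells and all 11 CGE-derived cells with a count, against 1 of 46 Glutamatergic cells.

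The 4 cells labelled GABAergic, which have no eminence in their label, had little Erbb4. Their levels were 24.7 CPM in the cell of the Lhx6 line and 1.09, 3.12 and 0.0715 CPM in the 3 of the Htr3a line. The Lhx6-line cell carried 85.4% of the group's counts, and without it the group stood at 1.54 CPM instead of 7.72. The 2 Htr3a-line cells at 3.12 and 0.0715 CPM had GABAergic markers at 3119 and 4152 CPM, above the median of the MGE-derived cells (1553 CPM). The Lhx6-line cell had those markers at 89.3 CPM, and the cell at 1.09 CPM held microglia markers at 8903 CPM.

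**Figure D1:**
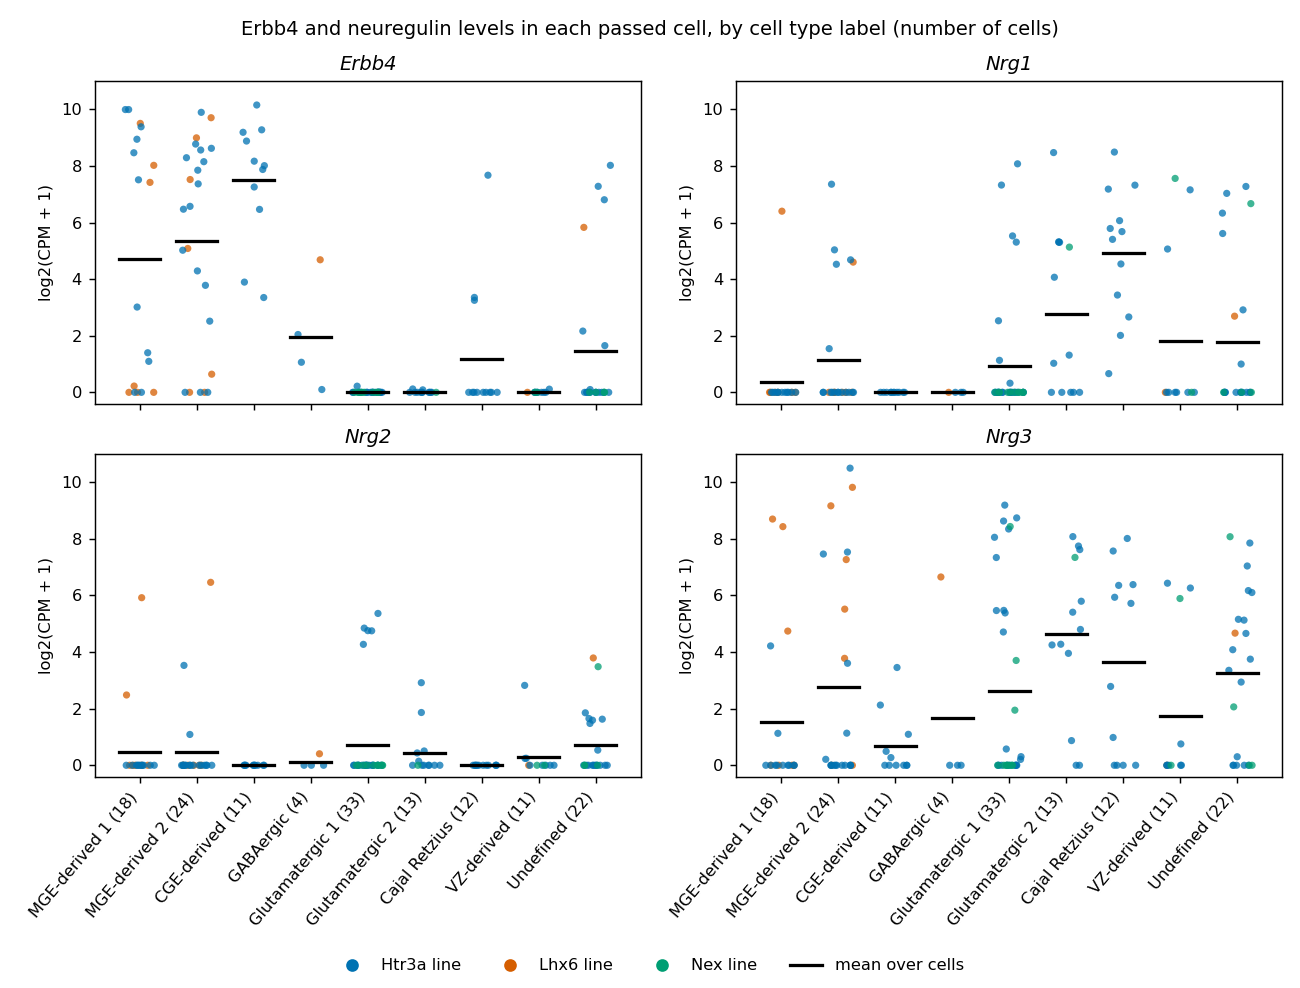
Level of each gene in each of the 148 passed cells, as log2(CPM + 1), by cell type label with the number of cells in brackets. Each point is a cell, coloured by driver line and spread sideways at random, and black bars are means over cells. Erbb4 fills the MGE-derived and CGE-derived columns and lies at 0 in nearly all Glutamatergic cells, Nrg1 is above 0 in all 12 Cajal Retzius cells, and Nrg3 is spread over all labels.

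By mean log2 level the order of labels for Erbb4 was CGE-derived (7.50, SD 2.17), MGE-derived 2 (5.34, SD 3.59), MGE-derived 1 (4.72, SD 4.32), GABAergic (1.97, SD 1.97), Cajal Retzius (1.19, SD 2.41) and then Glutamatergic 2, VZ-derived and Glutamatergic 1, all at 0.02 or less. Only 2 steps of this order were larger than the smaller SD of the neighbours: from MGE-derived 1 down to GABAergic, and from Cajal Retzius down to Glutamatergic 2. The steps among the 3 eminence labels lay within it.

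Between interneuron-type and glutamatergic cells, Erbb4 was called higher and Nrg3 lower, while Nrg1 and Nrg2 were in neither call. Erbb4 stood at 261 CPM (interval 259.5 to 262) in 47 of 57 interneuron-type cells against 0.00662 CPM (0.00137 to 0.0193) in 3 of 46 glutamatergic cells. Its log2 difference of 5.31 (SD 3.72 and 0.04) exceeded the spread between cells of either group, and 99.9% of the 13139 genes counted lay below it. Of those genes 6.07% were called higher and 9.74% lower in interneuron-type cells, beside 1 call in each direction among the 4 members. Erbb4 passed the filter through the interneuron-type cells alone, so it could only have been called higher. The log2 difference of Erbb4 was 5.63 without the cells that held markers of another cell type. That alternative was chosen after the data were seen and drops 6 interneuron-type and 5 glutamatergic cells.

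Erbb4 was called lower in MGE-derived than in CGE-derived cells, with 276 CPM in 32 of 42 cells, 336 CPM in 11 of 11, and a log2 difference of -2.43 (SD 3.88 and 2.17). By summed counts, which high cells dominate, the difference was -0.28. All CGE-derived cells are of the Htr3a line (mean log2 level 7.50). MGE-derived cells had a mean of 5.57 in that line (28 cells) and 4.08 in the Lhx6 line (14 cells). Among cells with a count the median was 206 CPM in MGE-derived and 257 CPM in CGE-derived cells. In this comparison 17.4% of 12753 genes were called higher and 10.8% lower in MGE-derived cells; without the cells that held markers of another cell type 1639 were higher and 1879 lower. Between MGE-derived 1 and MGE-derived 2 cells Erbb4 differed by -0.62 (SD 4.32 and 3.59), within the spread between cells, and by 0.73 by summed counts.

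In Cajal Retzius cells, early-born neurons of the cortical surface, Erbb4 rested on few cells. It was found in 3 of 12 cells, at 8.53, 9.23 and 203 CPM, and the other 9 had none. The cell at 203 CPM (cell 12) also held GABAergic markers at 1416 CPM and MGE interneuron markers at 2724 CPM, beside Cajal-Retzius markers at 15839 CPM. In the other 11 Cajal Retzius cells GABAergic markers reached at most 81.8 CPM, and Erbb4 stood at 2.25 CPM without cell 12. The log2 difference to glutamatergic cells was 1.18 (SD 2.41 and 0.04) and was called higher. It was 0.59 without the cells that held markers of another cell type, under the threshold. Erbb4 passed the filter there through the Cajal Retzius cells alone, so it could only have been called higher. The part of GABAergic RNA in cell 12 was not tested.

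**Figure D2:**
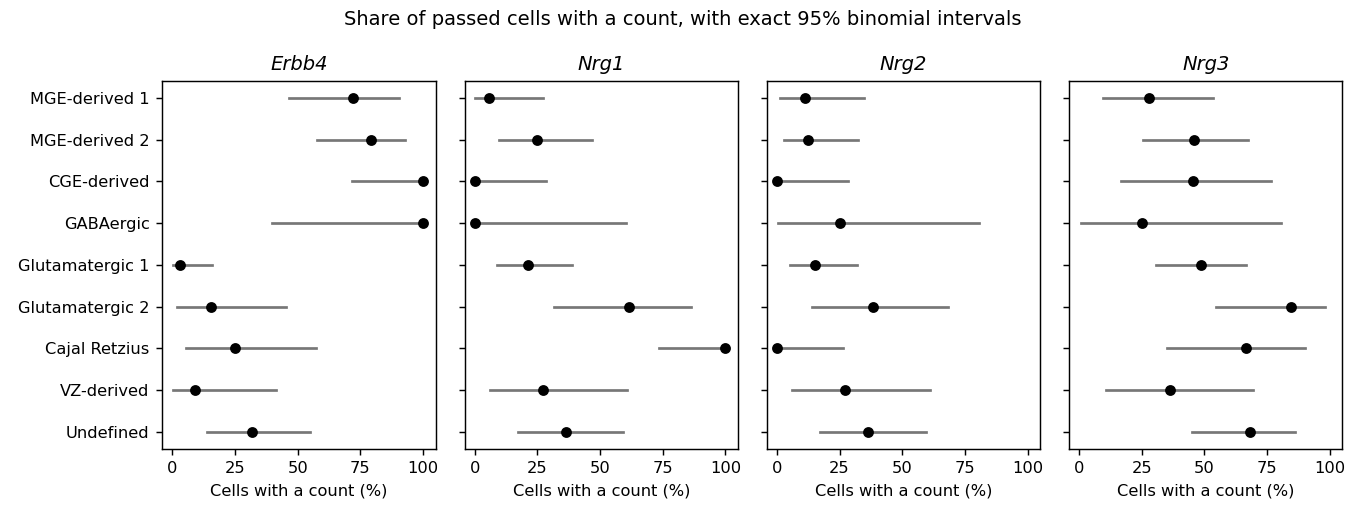
Share of passed cells with at least 1 count of each gene, in percent, by cell type label, with exact 95% binomial intervals as grey bars. Erbb4 and Nrg1 have opposite ends: Erbb4 is in all CGE-derived and GABAergic cells and in 3.03% of Glutamatergic 1 cells, and Nrg1 is in all Cajal Retzius cells and in no CGE-derived or GABAergic cell.

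Nrg1, known for its many splice forms, was found in every Cajal Retzius cell. All 12 had a count (100%, interval 73.5 to 100), at 0.582 CPM in the lowest cell, a median of 45.8 and 359 CPM in the highest. Of the other labels Glutamatergic 2 came next, with 8 of 13 cells (61.5%, 31.6 to 86.1), a median of 1.49 and a highest cell of 354 CPM. Elsewhere the median cell had none: Nrg1 was found in 3 of 11 VZ-derived, 7 of 33 Glutamatergic 1, 6 of 24 MGE-derived 2 and 1 of 18 MGE-derived 1 cells, and in none of the 11 CGE-derived and 4 GABAergic cells. The absence in CGE-derived cells allows a share of up to 28.5%, and a level under 0.0256 CPM at 3 counts over the group.

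Against glutamatergic cells Nrg1 was higher in Cajal Retzius cells, at 84.5 CPM (interval 83.0 to 85.9) against 19.3 CPM (18.9 to 19.7), and its log2 difference was 3.50 (SD 2.35 and 2.55). Background calls were many here, 34% of 12722 genes higher and 7.97% lower (by summed counts, higher calls fell from 81.0% to 39.8% of all calls), but 97.9% of the genes lay below Nrg1. Its call held in every alternative run, with 1.64 as the lowest value. Cell 8 was the highest, and without it the level was 50.7 CPM. Cajal Retzius cells held more genes than glutamatergic cells (median 6715 against 5621.5).

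Within the Glutamatergic labels Nrg1 was called lower in Glutamatergic 1 than in Glutamatergic 2 cells, with 14.6 against 27.9 CPM and a difference of -1.85 (SD 2.22 and 2.92), within the spread between cells. Without the highest cell of each the levels were 7.82 and 12.6 CPM. Many genes shifted that way: 48.7% of 12564 genes were called lower and 1.19% higher, all genes had a median of -0.97 (by summed counts -0.10, with 1961 genes higher and 2875 lower), and Glutamatergic 1 cells held fewer genes (median 4955 against 7586). The call of Nrg1 was lost by summed counts (-0.93) and with a pseudocount of 10 (-0.79).

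In MGE-derived 2 cells Nrg1 went with microglia transcripts in part. Of the 6 MGE-derived 2 cells with Nrg1, 4 held microglia markers at 1682 to 11745 CPM and had 9511 to 14811 genes, where the label's median was 5494.5 genes. Those 4 cells are all the MGE-derived 2 cells with at least 1000 CPM of microglia markers; in the other 20, Nrg1 was found in 2, at 163 and 23.3 CPM. Over all interneuron-type cells Nrg1 was in 4 of 6 cells with that much of the markers and in 3 of 51 without. The MGE-derived 1 cell and the GABAergic cell with that much had no Nrg1. Outside the interneuron-type labels it was in 0 of 4 such Glutamatergic, 0 of 1 VZ-derived and 1 of 3 Undefined cells. All 15 Glutamatergic cells with Nrg1 were below that marker level. The part of microglia RNA in these values was not tested. The log2 difference of Nrg1 between interneuron-type and glutamatergic cells was -0.84 (SD 1.72 and 2.55), short of a call. It was -1.25 without the cells that held markers of another cell type. The threshold was also passed in the Htr3a line alone, with mean log2 levels of 0.55 and 1.74. By summed counts it was passed too, with a level 3.33-fold lower in interneuron-type cells.

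Nrg3, a neuregulin known mainly from neurons, was the most widely found of Nrg1, Nrg2 and Nrg3. It had a count in 76 of 148 passed cells (51.4%, interval 43.0 to 59.6). It was in 11 of 13 Glutamatergic 2 cells (median 26.8, highest 269.5 CPM) and 8 of 12 Cajal Retzius cells (median 28.8, highest 257 CPM). In Glutamatergic 1 cells it was in 16 of 33 (median 0, highest 584 CPM), and in MGE-derived 2 cells in 11 of 24 (median 0, highest 1447 CPM). Fewer cells had it among MGE-derived 1 (5 of 18), VZ-derived (4 of 11) and GABAergic (1 of 4) cells. CGE-derived cells differed in level more than in share: 5 of 11 had a count, and none was above 9.97 CPM.

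The order of labels by mean log2 level of Nrg3 ran from Glutamatergic 2 (4.63, SD 2.85) through Cajal Retzius (3.65, SD 3.30), MGE-derived 2 (2.75, SD 3.81), Glutamatergic 1 (2.62, SD 3.52), VZ-derived (1.76, SD 2.86), GABAergic (1.66, SD 3.33) and MGE-derived 1 (1.51, SD 2.94) to CGE-derived (0.68, SD 1.14). No step between neighbours exceeded the smaller of their SDs. For Nrg1 the order was Cajal Retzius (4.94), Glutamatergic 2 (2.76), VZ-derived, MGE-derived 2 (1.16), Glutamatergic 1 (0.92), MGE-derived 1 (0.36) and then CGE-derived and GABAergic at 0. There too no step exceeded the spread, apart from the last, down to labels with no count at all.

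Nrg3 was called lower in interneuron-type than in glutamatergic cells, at 53.8 against 79.1 CPM and in 22 of 57 against 27 of 46 cells. The log2 difference of -1.31 (SD 3.17 and 3.44) was within the spread between cells, reached -2.55 in the Htr3a line alone and fell short of a call by summed counts (-0.56). MGE-derived cells were called higher than CGE-derived cells, at 74.6 CPM (interval 73.7 to 75.4) against 1.33 CPM (1.13 to 1.55), and the log2 difference was 1.54 (SD 3.48 and 1.14). That call depended on the Lhx6 line, since all CGE-derived cells are of the Htr3a line and within it the difference was 0.60. By summed counts the Htr3a-line MGE-derived cells still stood higher, at 39.0 CPM (16.4 CPM without the highest cell) against 1.33 CPM. The gene was found in 8 of 28 of them and in 5 of 11 CGE-derived cells.

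Among the finer labels Nrg3 was called lower in MGE-derived 1 than in MGE-derived 2 cells, at 34.2 and 102 CPM, a log2 difference of -1.24 (SD 2.94 and 3.81). Without cell 6, with 57.2% of the counts, MGE-derived 1 stood at 15.4 CPM. The background there was 22.6% of 13837 genes lower and 2.61% higher, and the call was lost among cells with at least 4000 genes (-0.44). It was also called lower in Glutamatergic 1 than in Glutamatergic 2 cells (-2.01, SD 3.52 and 2.85), and by summed counts the sign turned (0.15, at 82.0 against 73.7 CPM). VZ-derived cells were called lower than glutamatergic cells, with 12.6 against 79.1 CPM and -1.43 (SD 2.86 and 3.44), where 14.7% of 12256 genes were called lower and 11.6% higher, and the call was lost with a pseudocount of 10 (-0.80). Cajal Retzius and glutamatergic cells were in neither call for Nrg3, at 0.46 (SD 3.30 and 3.44).

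Nrg2 was low in all labels. It was found in 27 of 148 passed cells (18.2%, interval 12.4 to 25.4), with a median of 2.64 CPM among those cells and 87.3 CPM in the highest. It was in 5 of 13 Glutamatergic 2 (38.5%), 8 of 22 Undefined (36.4%) and 3 of 11 VZ-derived cells (27.3%), at up to 12.9 CPM. None of the 12 Cajal Retzius and 11 CGE-derived cells had it. Its highest group levels were 4.46 CPM in Glutamatergic 1 cells (5 of 33) and 3.95 CPM in MGE-derived 1 cells (2 of 18), where cell 7 held 95.3% of the counts. The gene stood between 0.0868 and 2.14 CPM in the GABAergic, Glutamatergic 2, VZ-derived, Undefined and MGE-derived 2 labels. In the 6 comparisons between labels its log2 differences lay between -0.65 and 0.46, and none was called.

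Compared per kilobase of exon, since longer genes collect more reads, Nrg3 led Nrg1 and Nrg2 in Glutamatergic, MGE-derived and CGE-derived cells. In Cajal Retzius cells the leading ligand of these 3 depended on the highest cells. Nrg4, whose counts are uncertain because its exons overlap another gene, was above all 3 in Cajal Retzius (12.6) and CGE-derived cells (1.96). In CGE-derived cells 1 cell held 91.0% of its counts. In MGE-derived (8.66) and Glutamatergic cells (4.88) Nrg4 was under Nrg3. In Cajal Retzius cells Nrg1 was at 8.16 and Nrg3 at 6.85 CPM per kilobase, with no Nrg2; without the highest cell of each they were at 4.89 and 5.12, in the reverse order. In the Glutamatergic cells Nrg3 led at 11.6, against 1.87 for Nrg1 and 1.02 for Nrg2. In MGE-derived cells Erbb4 was at 22.4 and Nrg3 at 10.9, with Nrg2 at 0.914 and Nrg1 at 0.822. Without the highest cell of each, Nrg2 was at 0.578 and Nrg1 at 0.331. In CGE-derived cells Erbb4 was at 27.2 and Nrg3 at 0.195 CPM per kilobase.

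Receptor and ligands were found together in some cells and apart in others. Ligands were in 97 of the 148 passed cells and in 32 of the 61 with Erbb4: 32 cells had a count of Erbb4 and of at least 1 of the 3 ligands, 29 of Erbb4 only, 65 of ligands only and 22 of neither. In the Glutamatergic cells 28 of 46 had ligands without Erbb4, and the 2 cells with both had a single count of Erbb4. In the interneuron-type cells 27 of 57 had Erbb4 without a ligand, 20 had both, 8 had a ligand only and 2 neither. These are counts of cells that share labels, lines and perhaps embryos, and no association was tested.

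Interneurons with both genes mostly held Nrg3. Of the 32 MGE-derived cells with Erbb4, 12 had Nrg3, 5 had Nrg1 and 2 had Nrg2. Among MGE-derived 2 cells, cell 5 of the Lhx6 line had Erbb4 at 508 and Nrg3 at 903 CPM, and cell 12 of the Htr3a line had 393 and 184 CPM. Cell 13, of the Htr3a line, had the highest Nrg3 of all cells (1447 CPM) with Erbb4 at 18.6 CPM. The 5 CGE-derived cells with both genes held Nrg3 only, at 0.207 to 9.97 CPM.

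**Figure D3:**
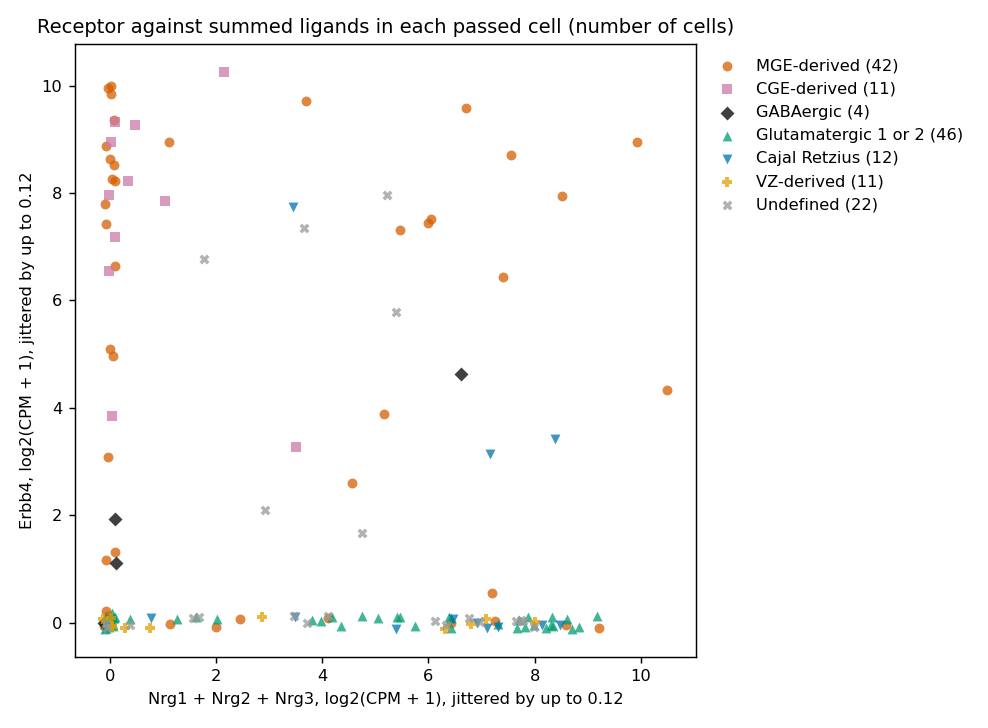
Erbb4 against the sum of Nrg1, Nrg2 and Nrg3 in each passed cell, both as log2(CPM + 1) and moved by up to 0.12 at random so that points at 0 can be seen. Glutamatergic cells lie along the bottom, CGE-derived cells and 18 of the 42 MGE-derived cells along the left edge or near it, and 14 MGE-derived cells have both.

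Several ligands in the same cell were common in Glutamatergic 2 and Cajal Retzius cells. All 13 Glutamatergic 2 and all 12 Cajal Retzius cells had at least 1 of the 3 ligands, 8 of each had at least 2, and 3 Glutamatergic 2 cells had all 3. Of the Glutamatergic 1 cells 16 of 33 had none, 5 had 2 and 3 had 3. Of the 11 VZ-derived cells 4 had none, 1 had 2 and 1 had 3. In the interneuron-type cells 29 of 57 had none and 6 had 2 or more. Median genes per cell were 7586 in Glutamatergic 2, 6715 in Cajal Retzius, 5309 in VZ-derived, 4955 in Glutamatergic 1 and 4895 in interneuron-type cells. The part of gene detection in these counts was not tested.

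The driver lines differed within labels. Among MGE-derived cells, Nrg3 was called higher in the Lhx6 line (14 cells) than in the Htr3a line (28 cells), at 182 CPM (interval 179.5 to 185) in 8 of 14 cells against 39.0 CPM (38.2 to 39.7) in 8 of 28. Without MGE-derived 2 cell 13, which held 58.6% of its counts, the Htr3a line stood at 16.4 CPM, and without cell 5 the Lhx6 line stood at 122 CPM. Cells of the Lhx6 line ran from 0 through a median of 19.2 to 903 CPM, those of the Htr3a line from 0 through a median of 0 to 1447 CPM. The groups overlap at both ends. The log2 difference was 2.82 (SD 4.04 and 2.79), 99.7% of 14147 genes lay below it, and over the alternatives it ran from 1.65 to 3.90. The sizes of both groups, and embryos that go with the line, limit what the difference shows.

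Both finer labels showed the same direction for Nrg3. In MGE-derived 1 cells it was in 3 of 7 Lhx6-line cells at 108 CPM and in 2 of 11 Htr3a-line cells at 1.33 CPM, with a log2 difference of 2.64. Without the highest cell of each these levels were 52.5 and 0.135 CPM. In MGE-derived 2 cells it was in 5 of 7 at 256 CPM and in 6 of 17 at 61.0 CPM, with a difference of 3.29 (138 and 25.4 CPM without the highest cells). Erbb4 went the other way in both, by -1.84 and -1.09, and by -1.49 over both labels together (SD 4.25 and 3.66, 195 against 303 CPM), within the spread between cells, and the call was lost by summed counts (-0.64). Nrg1 (-0.04) and Nrg2 (0.90) were in neither call, but Nrg2 passed the threshold without the cells that held markers of another cell type (1.06) and by summed counts (5.28).

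In that comparison 9.01% of genes were called higher and 20% lower in the Lhx6 line. Higher calls were 31.1% of all calls and fell to 19.5% with TMM scaling, which moved the median over all genes from -0.29 to -0.42; Nrg3 stayed called (2.62). All 5 MGE-derived cells with at least 1000 CPM of microglia markers were of the Htr3a line. Without them the difference was 2.71 for Nrg3 and -2.06 for Erbb4, while higher calls became 54% of all calls over 11519 genes. Median genes per cell in MGE-derived 2 were 4540 in the Lhx6 and 6495 in the Htr3a line.

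Among Glutamatergic 1 cells all 3 ligands were called lower in the Nex line. Nrg1 was in 0 of 10 Nex-line cells and in 7 of 23 Htr3a-line cells (19.9 CPM, highest cell 269 CPM, 10.7 CPM without it). Its summed reads were at least 512-fold lower, against 3 counts over the Nex-line group. Nrg2 was in 0 of 10 and 5 of 23 (6.05 CPM), at least 156-fold lower by summed reads. Both bounds cover counting error only, not the sampling of cells. Nrg3 was in 3 of 10 cells at 23.3 CPM (interval 22.3 to 24.4), falling to 1.77 CPM without cell 24, and in 13 of 23 cells at 103 CPM (101.5 to 104).

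The log2 differences were -1.31 for Nrg1, -1.04 for Nrg2 and -1.74 for Nrg3 (SD 2.77 and 3.74), none beyond the spread between cells of the Htr3a line. The background was 19.1% of 12508 genes called lower and 14.3% higher, beside 3 of 3 ligands called lower. Nrg1 and Nrg2 passed the filter through the Htr3a line alone, so of the ligands only Nrg3 could have been called in either direction. Nrg2 lay near the threshold, and leaving out the highest cell of each line ended its call (-0.85), while the call of Nrg1 was lost with a pseudocount of 10 (-0.63). Nrg3 kept its call in all alternatives run. The Nex-line cells held 4312.5 genes at the median and the Htr3a-line cells 5184. Absence from 10 of 10 cells allows a share of up to 30.8%, and the Htr3a-line shares were 30.4% for Nrg1 and 21.7% for Nrg2.

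**Figure D4:**
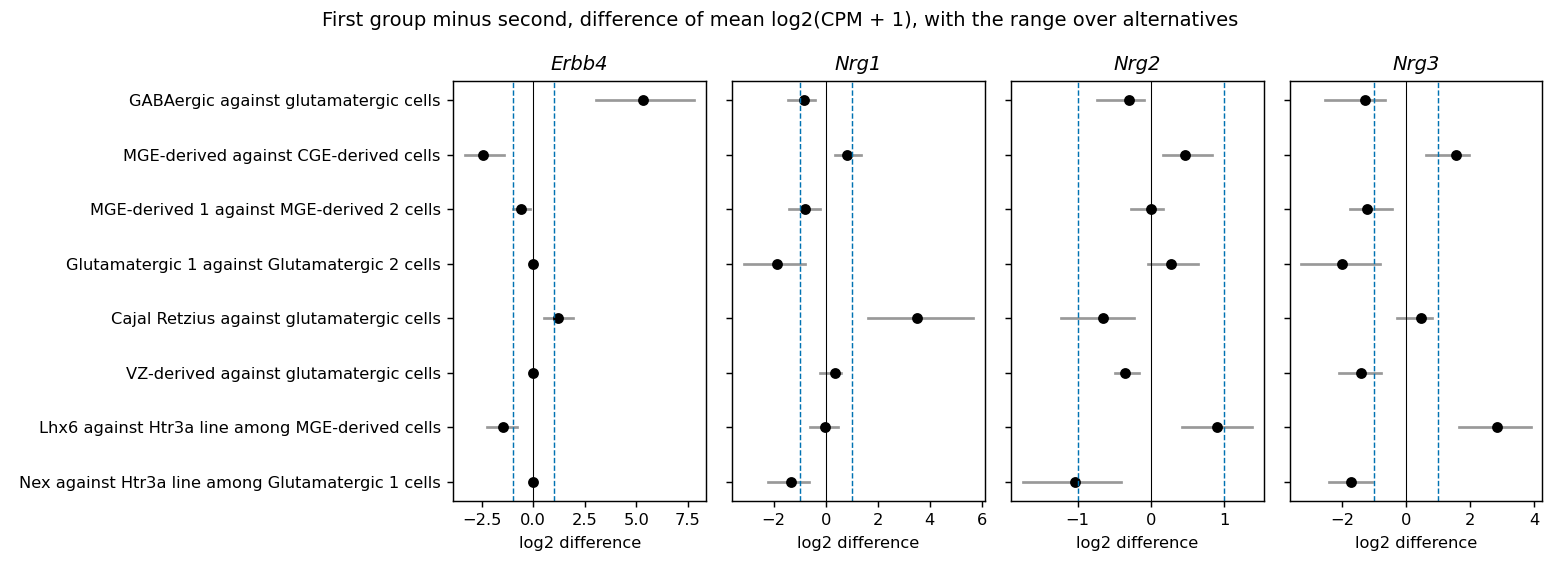
Difference of mean log2(CPM + 1) of each gene in the 8 comparisons, first group minus second. Black points are the reported values, grey bars span the alternatives other than summed counts, and dashed lines mark the threshold of 1 in each direction. Erbb4 is far to the right only for interneuron-type cells (marked GABAergic in the plot) against glutamatergic cells, Nrg1 only for Cajal Retzius cells, and Nrg3 for the Lhx6 line.

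Among the 22 Undefined cells the receptor was found in cells with markers of both classes. Erbb4 was in 7 of them, at 0.0712 to 259 CPM, and those 7 had GABAergic markers at 299 to 1053 CPM, where the other 15 had a median of 2.06 and at most 431 CPM. Their glutamatergic markers ran from 172 to 2098 CPM, with a median of 1670.5 CPM against 609.6 CPM in the other 15. In cells 1, 5 and 8 these were lower than the GABAergic markers. The 7 cells with Erbb4 held more genes than the other 15 (median 9500 against 5364). The part of mixed RNA was not tested. All 7 also held at least 1 ligand, as did 13 of the other 15. Nrg3 was in 15 of 22 (median 10.8, highest 269 CPM), Nrg1 in 8 and Nrg2 in 8. Of the 14 failed cells only 1, labelled CGE-derived, had Erbb4, at 1088 CPM, and 2 had Nrg1, 2 Nrg3 and none Nrg2.

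Other receptors of the family were nearly absent. Egfr, the EGF receptor, was in 15 of 148 passed cells (highest 47.1 CPM), Erbb2, which binds no ligand by itself, in 11 (highest 93.6 CPM) and Erbb3, a neuregulin receptor with little kinase activity, in 8 (highest 3.61 CPM). The cells with Erbb3 were 4 MGE-derived 2 and 4 Undefined cells, and no cell of any other label had it. Only Egfr passed the filter between interneuron-type and glutamatergic cells, with a difference of 0.39, in neither call.

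Of the 8 other EGF family ligands 4 passed that filter and none was called, with a median of 0.11 beside -0.02 over all genes. Nrg4, the remaining neuregulin gene, was in 87 of 148 passed cells, among them 13 of 13 Glutamatergic 2 and 11 of 12 Cajal Retzius cells, and differed by 0.01 (SD 3.09 and 2.91). Its exons share 368 bases with Fbxo22 on the other strand, and the use of strand in counting is not stated, so its counts are uncertain. Egf differed by 0.47, Tgfa by -0.61 and Hbegf by 0.20. Areg was in 3 of these 103 cells, Epgn in 1, and Ereg and Btc in none.

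Genes that act on neuregulins and ErbB4 were shared by interneuron-type and glutamatergic cells. Of the 12 processing enzymes 10 passed the filter (Nrdc was not matched), with a median of -0.11. The sheddases Bace1 and Adam19 differed by 0.83 and -0.93. Of 11 regulators 10 passed, with a median of -0.32. The ubiquitin ligase Nedd4 was higher by 1.17 (51 of 57 against 37 of 46 cells), and the receptor inhibitor Errfi1 (-1.49) and the ubiquitin ligase Rnf41 (-1.30) were lower. By summed counts Nedd4 (0.79) and Rnf41 (-0.68) were under the threshold.

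All 18 signalling adaptors and kinases passed, 2 higher and 3 lower, with a median of -0.01, where 6.07% of all genes were higher and 9.74% lower. Akt1, a kinase downstream of phosphoinositide signalling, was higher by 1.82 over all lines but by 0.42 in the Htr3a line. Nck1 was higher by 1.22 (0.84 in the Htr3a line). Pik3r1 (-1.75), Mapk3 (-1.58) and Shc3 (-1.04) were lower, with Pik3r1 at -0.98 in the Htr3a line. Shc3, in 2 of 57 against 14 of 46 cells, passed the filter through glutamatergic cells alone and could only have been called lower. Of 10 intracellular and scaffold partners of ErbB4, 9 passed, with a median of -0.16. Erbin, a scaffold protein of the ErbB receptors, was higher by 1.71 (SD 3.09 and 1.34; 26 of 57 against 7 of 46 cells, 43.9 against 2.22 CPM). Dlg1, a synaptic scaffold, was lower by 2.02 on this scale, at 9.49 against 50.7 CPM in 18 of 57 against 29 of 46 cells. Kalrn differed by -0.69.

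Over the 148 passed cells the genes most like Erbb4 in level were Dlx1 (Pearson r of log2(CPM + 1) 0.72), Gad1 (0.66), Npas3 (0.65), Gad2 (0.64) and Dlx2 (0.61), among 10157 genes with a count in at least 20% of cells. Within the 57 interneuron-type cells these fell to 0.39, 0.13, 0.45, 0.13 and 0.20. For Nrg1 the highest were Kcnk10 (0.46), Rmc1, Hs3st1, Npr2 and Fkbp9, for Nrg3 Acsl3 (0.42), Cyp46a1, Mccc2, N4bp2l2 and Sh2d3c, and for Nrg2 Kcnk1 (0.40), Dhx29, Plekha8, Klc2 and Cenpv. Among the members r was 0.24 between Nrg1 and Nrg3, -0.20 between Erbb4 and Nrg1 and -0.13 between Erbb4 and Nrg3. The cells share labels, lines and library preparation, many values are 0, and the correlations are descriptions. The number of genes in a cell had r of -0.02 with Erbb4, 0.28 with Nrg1, 0.18 with Nrg2 and 0.14 with Nrg3.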

How the data were processed

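The authors deposited raw gene-level read counts for each cell, by Ensembl identifier and by symbol, and a normalized table (unit signal, deposited by the authors) of the 148 passed cells. Dividing each cell's counts by a single factor gives its values to within 0.1% in 99.8% of cases; the origin of the factor is not stated. Trimmomatic, STAR, featureCounts and build GRCm38 are named in the submitters' processing notes, without versions. The annotation and use of strand in counting are not given in the sources used here. The 22880 identifiers were given symbols from GENCODE M21 and summed to 22879 genes. The table by symbol was held in part, with only Erbb4 of the 4 genes, whose counts matched the first table. Cells with identical count profiles numbered 0.

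Groups follow the submitters' type, line and quality labels. CPM are counts divided by the cell total. Computations used Python 3.11.15, numpy 2.4.6, pandas 2.3.3 and scipy 1.17.1, and TMM sizes came from edgeR 4.0.16 in R 4.3.3. Shares have exact Clopper-Pearson and CPM exact Poisson 95% intervals. The difference measure was tested on simulated data. Alternatives were TMM scaling, the normalized table, pseudocounts of 0.1 and 10, summed counts, the Htr3a line only, leaving out the highest cell, cells with at least 4000 genes, thinning to 1700000 counts, no filter on low counts, and at least 10 counts for shares. Added after seeing the data was leaving out cells with at least 1000 CPM of microglia markers, of GABAergic markers in the Glutamatergic, Cajal Retzius and VZ-derived labels, or 5000 CPM of Cajal-Retzius markers outside the Cajal Retzius and Undefined labels.

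The members, the 6 pathway lists and the 10 marker lists were chosen with earlier results of these data known. Named were the 4 members, all ErbB receptors and EGF family ligands, the 3 genes of each other pathway list with the largest difference between interneuron-type and glutamatergic cells, and the 5 genes most like each member; 1 gene of the processing list is not reported here. Nck1 and Shc3 were named after their values were seen.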

Additional observations from a re-analysis of the deposited data

Results flagged for a closer look

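In groups of 4 to 10 cells, a highest or lowest cell was marked where its gap to the next cell was above Dixon's 95% critical value for the group's range. Of 19 groups with a varying value 11 held such a cell, each the highest. Chance marks about 1 in 20 groups of well-behaved values, and here most other cells lie at 0, so the marks mainly show detection in a single cell. Values are log2(CPM + 1). For Erbb4 the cell was VZ-derived cell 7 (0.11). For Nrg1 they were MGE-derived 1 cell 1 (6.40) and MGE-derived 2 cell 4 (4.60), both of the Lhx6 line, and Undefined cell 22 (6.67) of the Nex line. For Nrg2 they were GABAergic cell 1 (0.41), MGE-derived 1 cell 7 (5.92) and MGE-derived 2 cell 2 (6.46) of the Lhx6 line, VZ-derived cell 3 (2.82) of the Htr3a line and Undefined cell 21 (3.48) of the Nex line. For Nrg3 they were GABAergic cell 1 (6.65) and Glutamatergic 1 cell 24 (8.44) of the Nex line. GABAergic cell 1, the single GABAergic cell of the Lhx6 line, carries 2 of the marks and the highest Erbb4 of its label, and its MGE, CGE and glutamatergic markers were all at 0.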

How the results depend on the processing

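Of 317 alternative values of the members' log2 differences 286 moved by no more than 1, and 1 that had been called reversed its sign: Nrg3 in Glutamatergic 1 against 2 cells, to 0.15 by summed counts. Signs of uncalled differences turned too, as for Erbb4 in MGE-derived 1 against 2 and Nrg3 in Cajal Retzius cells below. Summed counts, which weight cells by level, moved most others. They gave 15.3 (interval 13.7 to 17.54) for Erbb4 in interneuron-type against glutamatergic cells and 11.5 (9.97 to 13.8) in Cajal Retzius cells, both against 3 counts. In MGE-derived against CGE-derived cells they gave -0.28 for Erbb4 and 5.81 for Nrg3, and as bounds against 3 counts 8.38 for Nrg1 and 6.81 for Nrg2. Further values were 0.73 (Erbb4) and -2.26 (Nrg1) in MGE-derived 1 against 2, 2.39 (Nrg2) in Glutamatergic 1 against 2, 2.13 (Nrg1), -7.37 (Nrg2, a bound) and -0.76 (Nrg3) in Cajal Retzius, -1.89 (Nrg2) and -2.65 (Nrg3) in VZ-derived against glutamatergic cells, 5.28 (Nrg2) in the Lhx6 line, and bounds of -9.00 (Nrg1) and -7.29 (Nrg2) in the Nex line.

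Pseudocounts of 0.1 and 10 gave 7.83 and 3.03 for Erbb4 in interneuron-type cells, -3.15 and -0.79 for Nrg1 and -3.29 and -0.83 for Nrg3 in Glutamatergic 1 against 2, 5.66 and 1.64 for Nrg1 in Cajal Retzius cells, and 3.90 and 1.65 for Nrg3 in the Lhx6 line. The authors' normalized table gave 6.93 for Erbb4 in interneuron-type cells and 4.83 for Nrg1 in Cajal Retzius cells, and the Htr3a line alone -2.55 for Nrg3 in interneuron-type cells. The causes of these shifts were not tested.

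Genes past a difference of 1 numbered 2077, 3594, 3493, 3223, 4103 and 4168 in the comparisons of interneuron-type with glutamatergic, MGE-derived with CGE-derived, MGE-derived 1 with 2, VZ-derived with glutamatergic, Lhx6 with Htr3a and Nex with Htr3a. By summed counts they were 4751, 6571, 6721, 5727, 7941 and 7335. Higher calls as a share of all calls moved by summed counts from 38.4% to 52.8% in the first of these and from 10.3% to 34.4% in the third, and without the cells that held markers of another cell type from 38.4% to 23.7% in the first. Of 36 CPM levels 21 moved by over 1.5 times without the highest cell. The table by symbol served for Erbb4 only. No paired analysis was possible because no test was made and cell numbers pair no cells. Groups of 4 to 57 cells of unknown embryos, and detection in few cells, limit these values.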
